A study of Pleurotus ostreatus with 32 samples.

Results

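The deposited expression table of the oyster mushroom Pleurotus ostreatus holds 10755 genes. Of these, 145 (1.35%) passed a rule for higher levels in primordia and young fruiting bodies than in mycelium, mature cap and mature stipe. They were chosen by measured values. On the log2 FPKM scale (FPKM is the read count of a gene per kilobase of gene and per mega of library counts), the lowest mean of 5 early groups had to lie at least 1.5 above the highest mean of 3 low groups, a 2.83-fold step. The mean count had also to reach 100 in each early group, which 7795 genes did. The early groups were stage 1 primordia, stage 3 primordium cap and stipe, and young fruiting body cap and stipe. The low groups were vegetative mycelium, mature cap and mature stipe. Lamellae, skin and dedifferentiated cap of the mature fruiting body played no part in the choice, and they are the outcome described here.

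All groups came from the same dikaryotic strain, N001, whose cells hold nuclei of both parents side by side. Bags of 3 kg spawn were kept under a cycle of 8 h light to 16 h dark, at 18 to 19 °C and a humidity of 80 to 85%. The labels name no mutation or treatment. The labels give a pool of 3 to 8 bodies per replicate, also for vegetative mycelium, which has no bodies. In the other groups the spread between replicates is thus one between pools, not between single bodies. Dedifferentiated cap had 2 libraries and the other 10 groups 3 each. The labels do not say how that cap tissue was made to dedifferentiate. Groups labelled fruiting body without a further stage are called mature below.

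A mushroom begins as vegetative hyphae that spread through the substrate. Hyphae then gather into a primordium, a compact knot in which the cap and the stipe take shape while the tissue is still small. The young body later expands into the mature one, much of it by swelling of cells that are already there. Lamellae, or gills, hang under the cap and carry the basidia, the cells in which nuclei fuse, pass through meiosis and give rise to spores. They are thus a site where cells still differentiate in a body that has otherwise finished its form. Skin is the outer layer of the cap. Development-wide RNA profiles of such fungi can separate genes of early building from genes of the finished tissue.

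The files name genes only by number, and 0 of the file numbers matched a name among the 11849 entries of the RefSeq gene list used here, which describes another strain (PC9). The members therefore have no symbols, products, positions or sequences in this account, and no gene family is assigned to any of them. Their coding lengths could be read from the deposited values. They ran from 126 to 6411 bases with a median of 885, while the 7650 non-members past the same count minimum had a median of 972. Coding lengths of at most 300 bases made up 12.4% of the members and 8.95% of those other genes.

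Total counts ran from 13.5 to 25.9 M (mega) per library. Replicates correlated with a median Spearman coefficient of 0.971 across genes, against 0.862 between groups. The lowest value within a group was 0.853, between replicates 2 and 3 of the stage 3 stipe. Replicate 3 of the stage 3 stipe also had the lowest TMM scaling factor of the fit, 0.690. In the outcome tissues the lowest correlations between replicates were 0.951 in lamellae, 0.965 in skin and 0.950 in dedifferentiated cap.

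The members were expressed over a wide range of levels. Their mean over the 5 early groups ran from 2.80 to 12.6 log2 FPKM with a median of 7.50 (181 FPKM), and their mean over the 3 low groups had a median of 4.72 (26.4 FPKM). Most were still detected in the low groups. The mean count reached 100 in all 11 groups for 106 of the 145, and only 1 member had a count of 0 in any library. The gap itself, which the choice fixed at 1.5 or more, had a median of 1.74 and reached 2 in 38 members, 3 in 7 and 4 in 2. Just inside the threshold lay gene 5959 at 1.50042 and gene 1456 at 1.50141, and just outside lay gene 3101 at 1.49702 and gene 2588 at 1.4966, so the boundary falls in a dense stretch of genes.

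All 15 early libraries lay above all 9 low libraries in 136 of the 145 members, in a contrast that the choice itself used and in which 7.62% of all 10755 genes do so. In the other 9 members a library of an early group overlapped one of a low group. The lowest early library was stage 3 stipe replicate 3 in 5 of these 9, and without that library 141 members had no overlap.

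The 145 members held a changing part of each library's RNA. Their share of all counts was 0.333 to 0.816% in mycelium, 3.36 to 4.65% in stage 1 primordia, 5.31 to 5.84% in stage 3 cap and 3.88 to 6.03% in stage 3 stipe. It was 4.32 to 5.61% in young cap and 2.78 to 4.12% in young stipe, then 0.526 to 0.866% in mature cap and 0.471 to 0.531% in mature stipe. These 8 groups were used to choose the members, so their order is a description. In the outcome tissues the share was 1.65 to 2.23% in lamellae, 1.65 to 2.60% in skin and 1.31 to 1.39% in dedifferentiated cap. A single gene, 7539, carried much of the skin value, which was 1.15 to 1.24% without it. In bulk tissue, fewer cells that express a gene and less of its RNA per cell cannot be told apart.

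**Figure D1:**
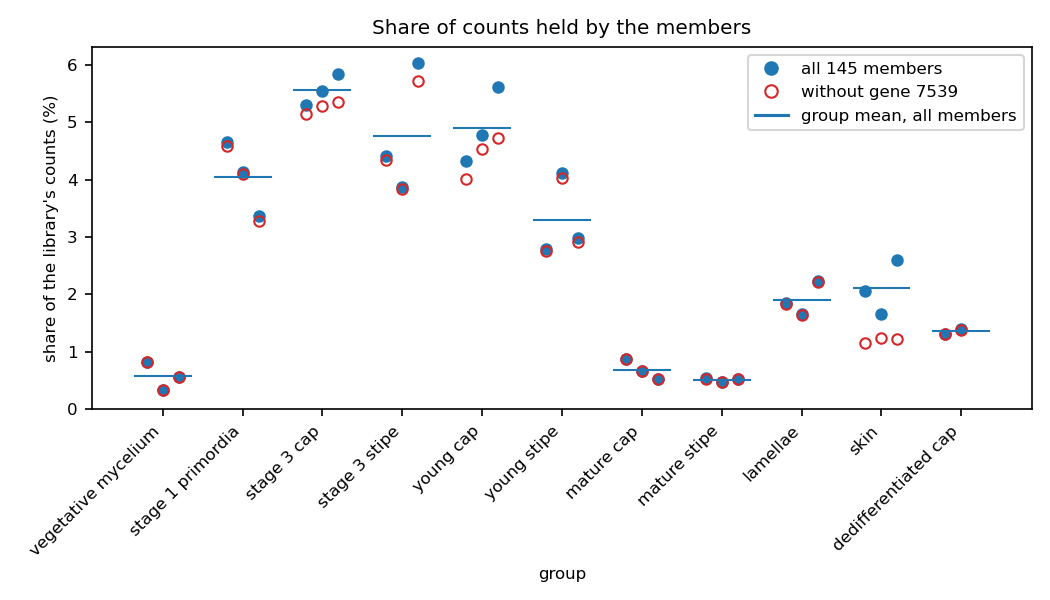
Share of each library's counts (%, linear axis from 0) held by the 145 members, by group, with 1 point per library and the group mean as a line. Filled points are all members and open points leave out gene 7539; open and filled points part clearly in skin, where the share falls to between 1.15 and 1.24% without that gene.

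Among the early groups, most members had their highest mean in stage 3 primordia. The highest early mean was that of stage 3 cap in 95 members, stage 3 stipe in 35, young cap in 9, stage 1 primordia in 6 and young stipe in none of the 145. Young stipe had the lowest early mean in 103 members. The median difference of stage 3 cap minus stage 1 primordia was 0.56 log2 units over the members, beside -0.01 over all genes of the table. From stage 3 to young bodies the members' median difference was -0.35 in cap and -0.39 in stipe, beside -0.002 and -0.013 over all genes. These values describe groups that took part in the choice, and no test is attached to them.

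The stage 3 stipe value rested in part on replicate 3. That library was the highest of the 15 early libraries in 54 members and the lowest in 21, so it departed from its group in both directions. Without it, stage 3 stipe had the highest early mean in 13 members instead of 35, and stage 3 cap in 114.

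Most members varied little between the early groups. The range of the 5 early means was at most 1 log2 unit in 92 members and exceeded 2 in 7. The 2 most abundant members were of the steady kind. Gene 6769, with a coding length of 240 bases, had means of 12.45 to 12.83 log2 FPKM in the 5 early groups. Its FPKM was 912, 1129 and 680.0 in mycelium, 1717, 1507 and 1271 in mature cap and 1044, 1106 and 1003 in mature stipe. It was 2702, 2813 and 2366 in lamellae, 2010.5, 1892 and 1909 in skin and 4054 and 1819 in dedifferentiated cap. Lamellae lay above skin without overlap, but the difference did not pass the edgeR test described below (0.44 log2 units, Benjamini-Hochberg adjusted p = 0.411). The dedifferentiated cap libraries of this gene lay on either side of both. Its counts were fractional in 9 of 32 libraries, and a fractional count can mean reads shared with another gene.

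Gene 11113, with a coding length of 327 bases, was close to its mature cap level in the outcome tissues. Its FPKM was 757, 983 and 1001 in lamellae, 779, 873 and 823 in skin and 595 and 732 in dedifferentiated cap. All 8 values lay in or near the range of mature cap (764, 916 and 524) and far under the lowest early library at 2116.

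**Figure D2:**
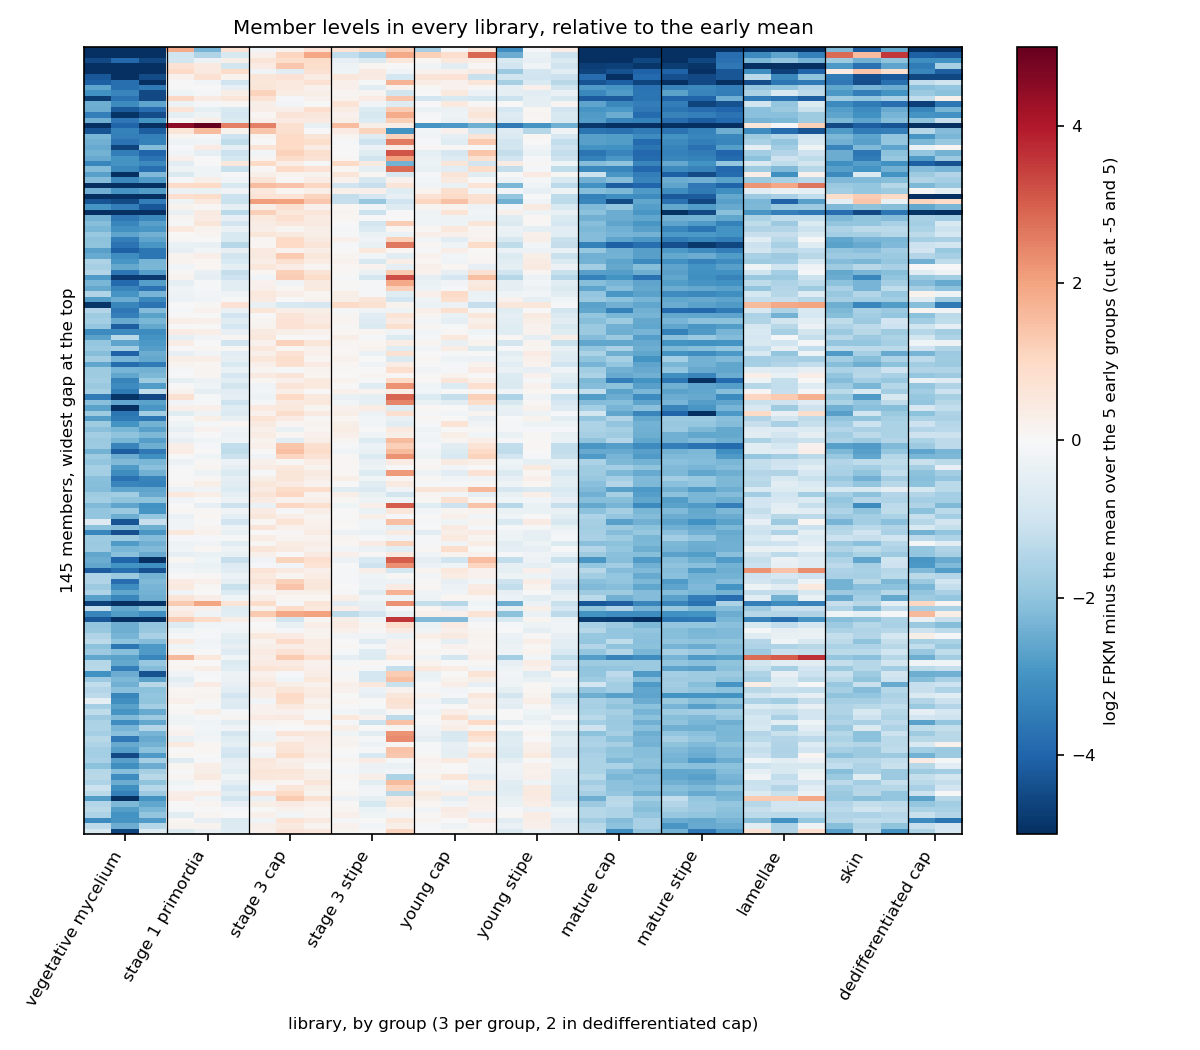
Level of each of the 145 members (rows, widest gap at the top) in each of the 32 libraries (columns, by group), as log2 FPKM minus the member's mean over the 5 early groups; colours are cut at -5 and 5. Mycelium, mature cap and mature stipe are blue by the choice of members, while lamellae, skin and dedifferentiated cap, which had no part in it, are mostly of a paler blue.

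The members with the widest range among the early groups departed from this steady pattern in different ways. Gene 9830 (coding length 1587 bases) had lower levels at each later stage: its FPKM was 586, 836 and 151 in stage 1 primordia, 148, 46.0 and 20.1 in stage 3 cap, and 3.4, 3.6 and 4.84 in young cap. The young stipe held 2.22, 3.34 and 4.97 FPKM, still above the highest low library at 1.63. Gene 8542 (201 bases) was on the side of the cap, with 459, 433 and 279 FPKM in stage 3 cap against 49.2, 29.3 and 54.2 in stage 3 stipe. In young bodies its cap libraries held 229.7, 296 and 191 FPKM and its stipe libraries 20.5, 96.2 and 43.3, again without overlap. Gene 5218 (2223 bases) had the same cap side, with 71.0, 111 and 117 FPKM in stage 3 cap and 11.9, 15.1 and 22.5 in stage 3 stipe.

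Lamellae, skin and dedifferentiated cap mostly took an intermediate level. A member's group mean was placed at the early level when it reached its lowest early mean, at the low level when it did not exceed its highest low mean, and between otherwise. In lamellae 19 members were at the early level, 118 between and 8 at the low level. In skin the numbers were 7, 121 and 17, and in dedifferentiated cap 19, 103 and 23. The low-level count of skin rested on the scaling: with CPM by library size alone it was 6, the same as in lamellae. In all 3 tissues at once, 81 members were between. These counts set tissues outside the choice against levels inside it, so they are a description with no test.

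How far each tissue stood along the step was measured on the log2 scale, with 0 at a member's mean of the low groups and 1 at its mean of the early groups. The median position over the members was 0.562 in lamellae, with 0.532, 0.492 and 0.665 in the single libraries. It was 0.270 in skin (0.257, 0.265 and 0.344) and 0.348 in dedifferentiated cap (0.346 and 0.377). Every lamella library therefore had a higher median position than every skin and dedifferentiated cap library. Within lamellae the libraries differed: 22, 15 and 36 members reached their lowest early mean in replicates 1, 2 and 3.

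**Figure D3:**
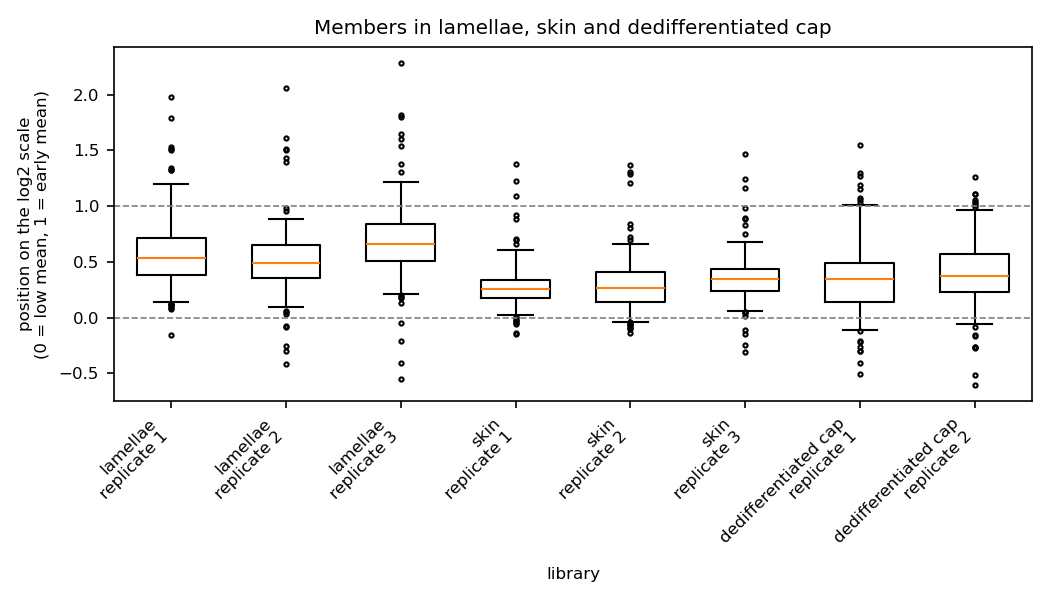
Position of the 145 members in each library of lamellae, skin and dedifferentiated cap, on a log2 scale where 0 is the member's mean over the low groups and 1 its mean over the early groups (dashed lines). Boxes give the quartiles with the median, whiskers the 5th to 95th percentile and points the members beyond; the medians are 0.492 to 0.665 in lamellae, 0.257 to 0.344 in skin and 0.346 to 0.377 in dedifferentiated cap.

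By group means, lamellae were the highest of the 3 tissues in 100 members, dedifferentiated cap in 37 and skin in 8. Skin was the lowest in 84, dedifferentiated cap in 53 and lamellae in 8. Against mature cap, a group that the choice required to be low, the median differences were 1.22 log2 units in lamellae, 0.49 in skin and 0.67 in dedifferentiated cap, beside -0.002, -0.001 and 0.008 over all genes. Against young cap, which the choice required to be high, they were -1.11, -1.78 and -1.58, beside 0.03, 0.09 and -0.04.

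The 3 outcome tissues were tested against each other, since none of their libraries entered the choice. Counts were tested with edgeR's quasi-likelihood test over 10814 genes, all 145 members among them. Calls needed a change of at least 2-fold and an adjusted p (Benjamini-Hochberg, over all genes) under 0.05. The comparisons share libraries pairwise, so each is given by its own values.

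More members were higher in lamellae than in skin than the reverse. Of the 145, 33 (22.8%) were called higher in lamellae, where 9.21% of all genes tested were, and 9 (6.21%) were called lower, where 9.79% of all genes were. Among the genes past the same count minimum the shares were 7.98% higher and 9.29% lower. The median log2 fold change was 0.71 over the members and -0.02 over all genes, and 129 of the 145 had a value above 0. Without overlap between libraries, 82 of the 145 members were higher, where 21.5% of all genes were. Likewise 11 of the 145 were lower, where 23.8% of all genes were. Of the 33 called higher, 29 had no overlap between the libraries of lamellae and skin, and their changes ran from 1.12 to 4.99 log2 units with a median of 1.90. Over the other scalings, filters and tests and with single libraries left out, the calls numbered 34 to 50, with more higher than lower each time.

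Gene 5047 (945 bases) had the largest rise in lamellae. Its FPKM was 344, 399 and 621 in lamellae, 12.9, 11.7 and 18.5 in skin, and 9.24 and 15.0 in dedifferentiated cap. The lamella values also exceeded every early library, of which the highest was 153 in stage 1 primordia. The change of lamellae over skin was 4.99 ± 0.51 log2 units (SE; edgeR, Benjamini-Hochberg adjusted p = 5.54e-08), and leaving out single libraries kept it between 4.70 and 5.21.

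Gene 9830, the one with lower levels after stage 1 primordia, was high again in lamellae. Its FPKM there was 40.1, 24.3 and 59.6, in the range of stage 3 primordia, against 1.16, 1.48 and 1.3 in skin and 0.376 and 0.213 in dedifferentiated cap. Lamellae exceeded skin by 4.99 ± 0.72 log2 units (SE; edgeR, Benjamini-Hochberg adjusted p = 9.71e-06). Gene 5157 (1152 bases), next to gene 5047 in how far lamellae stood above the lowest early mean, held 474, 385 and 642 FPKM in lamellae. Skin held 28.2, 26.3 and 38.1 and dedifferentiated cap 21.6 and 27.4, while the highest early library of this gene held 295. The difference of lamellae from skin was 4.02 ± 0.59 log2 units (SE; edgeR, Benjamini-Hochberg adjusted p = 1.28e-05).

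Of the 19 members at the early level in lamellae, 8 stood at least 1 log2 unit above their lowest early mean and 6 exceeded their highest early mean. The remaining ones lay as little as 0.01 above the lowest early mean, and without lamella replicate 2 the 19 became 27.

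**Figure D4:**
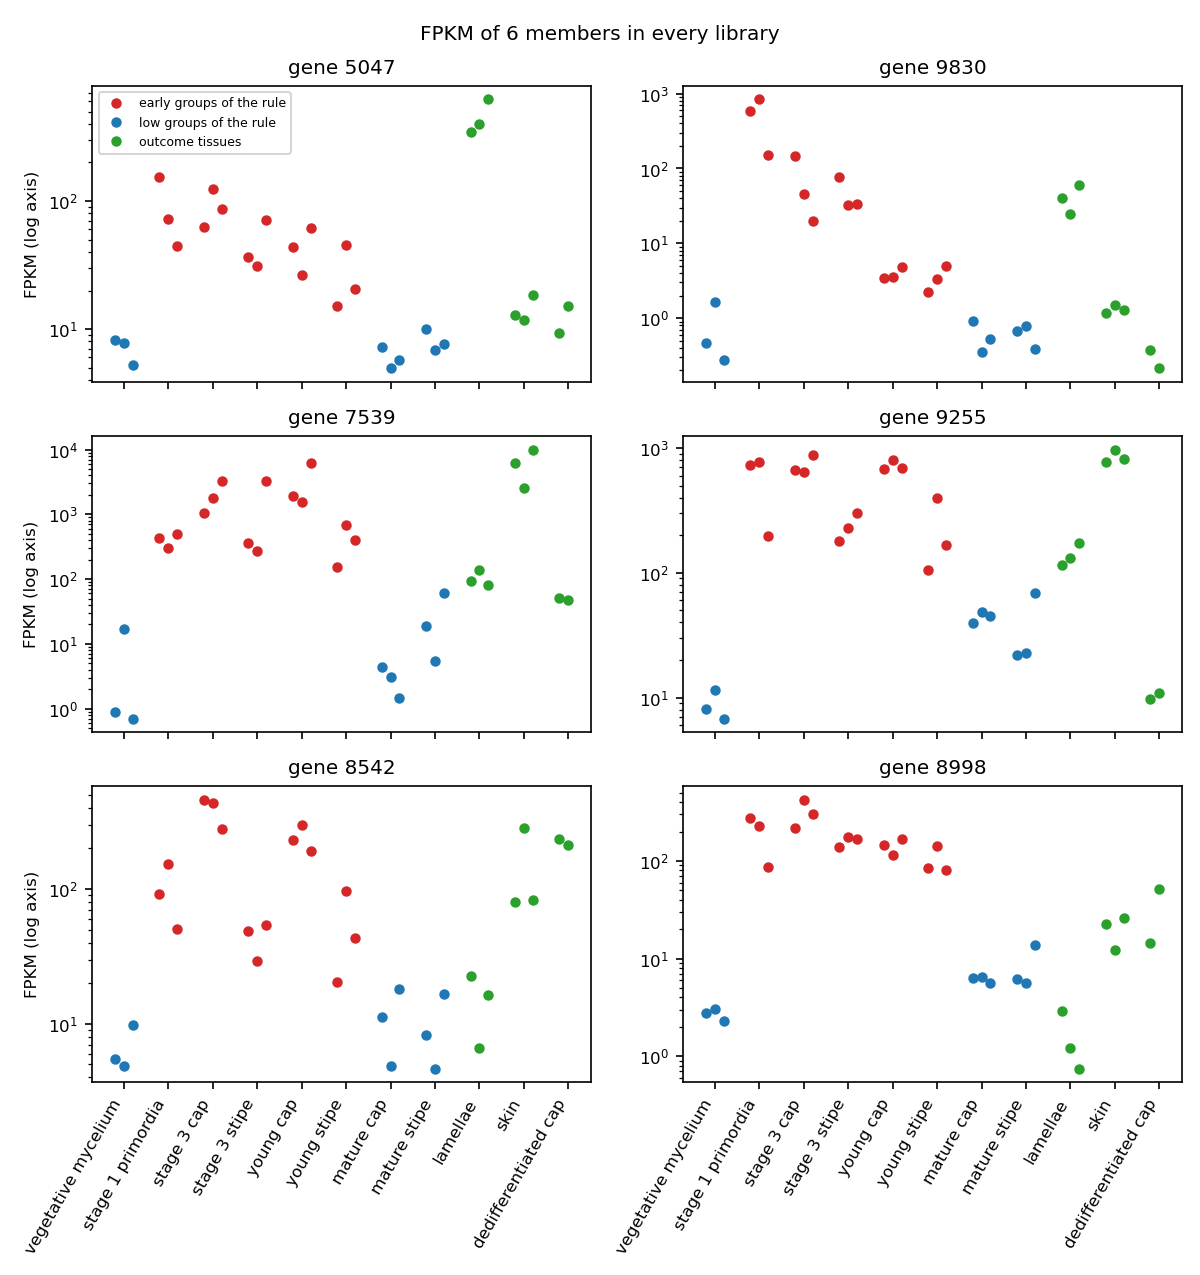
FPKM (log axis) of 6 members in every library, with 1 point per library, by group; red marks the early groups and blue the low groups used in the choice, green the outcome tissues. Genes 5047 and 9830 are high in lamellae, genes 7539 and 9255 in skin and gene 8542 in dedifferentiated cap and skin, while gene 8998 is lowest in lamellae at 0.742 to 2.91 FPKM.

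The few members higher in skin than in lamellae changed by more. Their 9 changes ran from 1.22 to 5.89 log2 units with a median of 3.30, and all 9 were without overlap between libraries. Gene 7539 (1398 bases) led them, with 6174, 2528 and 9986 FPKM in skin, 93.9, 139 and 82.1 in lamellae and 51.2 and 48.3 in dedifferentiated cap. Mature cap held 4.42, 3.12 and 1.46 FPKM and young cap 1954, 1536 and 6290.4, so the skin libraries lay in or above the range of young cap and the mature cap libraries far under it. Lamellae differed from skin by -5.89 ± 1.19 log2 units (SE; edgeR, Benjamini-Hochberg adjusted p = 0.000592). Its stage 3 stipe libraries held 364, 275 and 3229 FPKM, the last in the replicate that stood apart.

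Gene 12063 (936 bases) had the widest gap of all members, 4.91 log2 units. Its FPKM in the early groups spanned 274, in young stipe replicate 1, to 8589, in stage 1 primordia replicate 1. In skin it held 515, 130.3 and 404 FPKM, all above mature cap (25.6, 66.6 and 40.3), and 2 of the 3 within the early range, whereas lamellae held 26.6, 3.08 and 1.78 and dedifferentiated cap 3.68 and 3.58. The difference of lamellae from skin was -5.06 ± 1.12 log2 units (SE; edgeR, Benjamini-Hochberg adjusted p = 0.00139), and it ranged from -7.19 to -4.56 with single libraries left out.

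Gene 9255 (747 bases) had, next to gene 7539, the highest skin level relative to its lowest early mean. Skin held 775, 969 and 812 FPKM, beside 679, 797 and 694 in young cap, 114, 132 and 172 in lamellae and 9.68 and 10.9 in dedifferentiated cap. The difference of lamellae from skin was -2.61 ± 0.48 log2 units (SE; edgeR, Benjamini-Hochberg adjusted p = 0.000187).

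Between dedifferentiated cap and skin, the share of members called was under that of all genes in both directions. Of the 145, 17 (11.7%) were called higher in dedifferentiated cap, where 16.8% of all genes tested were, and 6 (4.14%) were called lower, where 11.7% of all genes were. Among genes past the count minimum the shares were 14.8 and 12.0%. The members' median log2 fold change was 0.19, beside -0.03 over all genes. Without overlap between libraries, 44 of the 145 members were higher, where 28.7% of all genes were. Likewise 20 of the 145 were lower, where 29.7% of all genes were. At a 4-fold threshold only 7 members were called, 2 higher and 5 lower. Of the 10814 genes tested, 864 were then called higher and 526 lower. The share of members called thus stayed under that of all genes in both directions. The members' turn towards lower calls rests on these few genes. The 23 calls became 35 with only the 2 compared groups in the fit, and 16 without dedifferentiated cap replicate 2. In that last fit 5 members (3.45%) were called lower beside 578 of all genes (5.32%), and 11 (7.59%) higher beside 11.1% of all genes.

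The 17 rises were modest and the 6 falls mostly steep. The rises ran from 1.13 to 2.78 log2 units and the falls from 1.00 to 6.97 with a median of 5.47. Gene 2476 (1014 bases) rose most: its FPKM was 5.14 and 5.95 in dedifferentiated cap, 1.02, 0.553 and 0.889 in skin and 0.554, 0.991 and 1.03 in lamellae, and 6.08 to 12.2 in stage 1 primordia. The change over skin was 2.78 ± 0.52 log2 units (SE; edgeR, Benjamini-Hochberg adjusted p = 0.000174). Its counts were fractional in 19 of 32 libraries and are uncertain for that reason.

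Gene 5464 (1272 bases) held 21.2 and 28.6 FPKM in dedifferentiated cap, 2.74, 5.75 and 4.34 in skin and 19.7, 8.13 and 22.3 in lamellae. Dedifferentiated cap exceeded skin by 2.54 ± 0.48 log2 units (SE; edgeR, Benjamini-Hochberg adjusted p = 0.00021). Its level was close to those of young stipe (14.1, 23.5 and 13.3) and young cap (27.9, 28.1 and 26.9). Dedifferentiated cap was lower than skin by far in genes 7539 and 12063. The log2 fold changes were -6.97 ± 1.51 (SE; edgeR, Benjamini-Hochberg adjusted p = 0.000867) and -6.60 ± 1.45 (adjusted p = 0.000972).

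Against lamellae, members were more often lower in dedifferentiated cap, the reverse of genes at large. Of the 145, 25 (17.2%) were called lower, where 13.3% of all genes tested were, and 8 (5.52%) were called higher, where 18.5% of all genes were. Among genes past the count minimum the shares were 12.7% lower and 16.1% higher. The median log2 fold change was -0.47 over the members and -0.04 over all genes. Without overlap between libraries, 16 of the 145 members were higher, where 28.3% of all genes were. Likewise 64 of the 145 were lower, where 30.2% of all genes were. All 33 called members were among these members without overlap. Leaving out single lamella libraries gave 29 to 37 calls. Then 13.8 to 20.7% of members were lower, beside 11.6 to 12.6% of all genes. Higher calls made up 4.83 to 6.21% of members, beside 16.7 to 17.3% of all genes. Without dedifferentiated cap replicate 1, 16 members (11.03%) were called lower beside 10.5% of all genes, so the members' share was then near that of all genes.

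**Figure D5:**
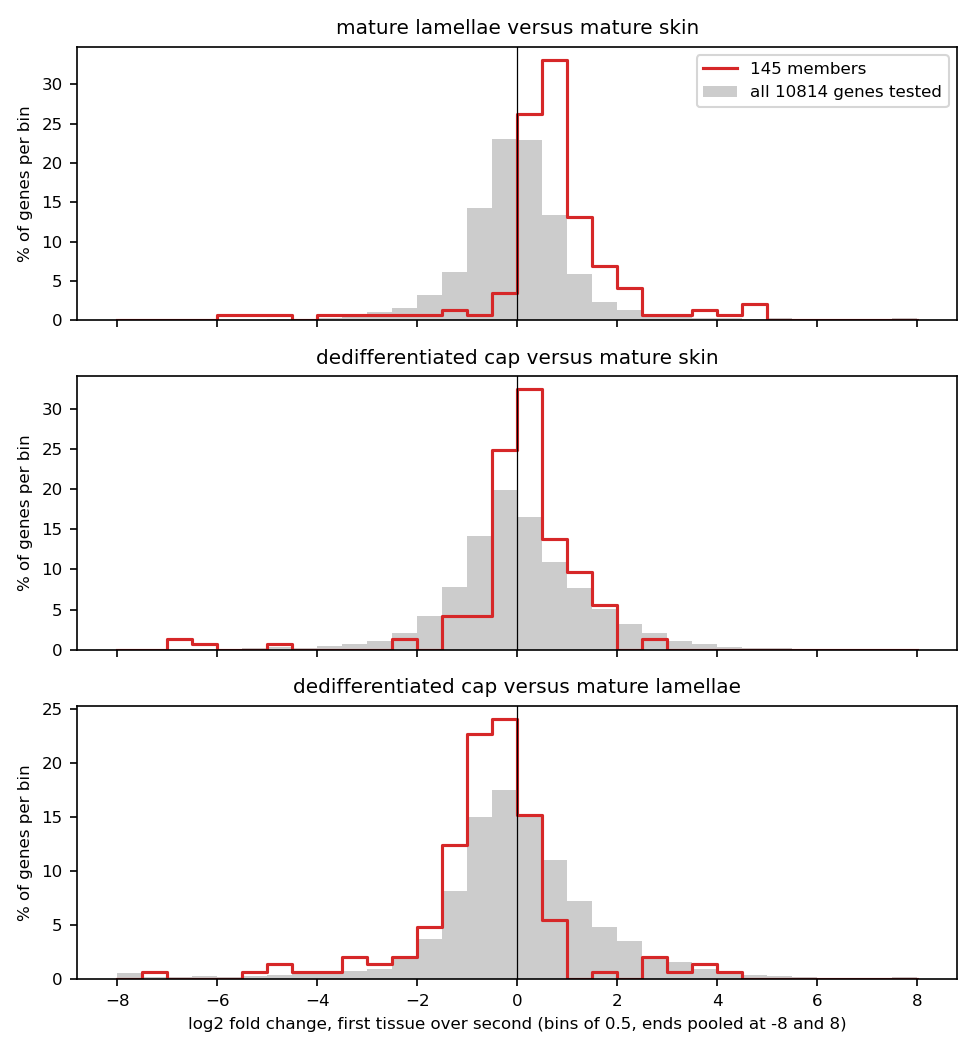
Distribution of log2 fold changes (x axis, bins of 0.5) of the 145 members (red line) and of all 10814 genes tested (grey bars), as % of genes per bin, for lamellae over skin, dedifferentiated cap over skin and dedifferentiated cap over lamellae. The member medians are 0.71, 0.19 and -0.47, beside -0.02, -0.03 and -0.04 for all genes.

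The 25 falls ran from 1.03 to 7.20 log2 units with a median of 2.27. They were led by gene 9830, with -7.20 ± 0.99 log2 units (SE; edgeR, Benjamini-Hochberg adjusted p = 2.43e-06) and counts of 11 and 7 in dedifferentiated cap against 1528, 595 and 2360 in lamellae. Gene 5047 followed with -5.23 ± 0.62 (edgeR, Benjamini-Hochberg adjusted p = 2.57e-07). In gene 9830 the dedifferentiated cap libraries, at 0.376 and 0.213 FPKM, were about as low as mature cap, at 0.915, 0.355 and 0.520.

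The 8 rises ran from 1.91 to 4.39 log2 units. Gene 8998 (351 bases) had 14.5 and 52.3 FPKM in dedifferentiated cap, 2.91, 1.2 and 0.742 in lamellae and 22.8, 12.2 and 26.2 in skin. Its lamella libraries lay under every library of mature cap and mature stipe, and overlapped mycelium at 2.79, 3.08 and 2.28. The change over lamellae was 4.39 ± 0.57 log2 units (SE; edgeR, Benjamini-Hochberg adjusted p = 1.11e-06), and it ranged from 3.19 to 5.24 with single libraries left out.

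Gene 7877 (237 bases) held 707 and 375 FPKM in dedifferentiated cap, 31.5, 39.8 and 33.5 in lamellae and 152, 132 and 253 in skin. Dedifferentiated cap exceeded lamellae by 3.96 ± 0.72 log2 units (SE; edgeR, Benjamini-Hochberg adjusted p = 9.74e-05). Stage 3 cap held 641, 322 and 519 FPKM, so one dedifferentiated cap library lay in that range and the other above it.

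Genes 8542 and 5218 had the highest dedifferentiated cap level relative to their lowest early mean. Gene 9255, also higher in cap than in stipe in early bodies, did not share this: it had 659.9, 646.5 and 876 FPKM in stage 3 cap against 179, 229.9 and 304 in stage 3 stipe, and held 9.68 and 10.9 in dedifferentiated cap. At least 2-fold higher means in cap than in stipe were found in 12 of the 145 members in stage 3, beside 7.66% of all genes. In young bodies they were found in 11 of the 145, beside 6.89% of all genes. Gene 8542 held 235 and 213 FPKM in dedifferentiated cap, 80.1, 285 and 82.8 in skin and 22.5, 6.61 and 16.4 in lamellae. Dedifferentiated cap exceeded lamellae by 3.88 ± 0.66 log2 units (SE; edgeR, Benjamini-Hochberg adjusted p = 4.46e-05), while the difference from skin was not called (0.58 log2 units, adjusted p = 0.522). Gene 5218 held 89.1 and 36.0 FPKM in dedifferentiated cap, 24.6, 20.8 and 28.1 in skin and 10.8, 10.5 and 10.2 in lamellae, a change over lamellae of 2.57 ± 0.40 log2 units (SE; edgeR, Benjamini-Hochberg adjusted p = 1.23e-05). In mature cap both were low, at 11.3, 4.87 and 18.0 FPKM for gene 8542 and at 3.66, 3.4 and 3.37 for gene 5218. In both genes the lowest early mean, used for the ranking, was that of a stipe group. Their stage 3 cap means, 390 and 99.7 FPKM, lay above their dedifferentiated cap means, 224 and 62.6 FPKM.

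Of the 19 members at the early level in dedifferentiated cap, 3 stood at least 1 log2 unit above their lowest early mean and none exceeded their highest early mean. In skin, 4 of 7 stood at least 1 log2 unit above and 3 exceeded the highest early mean.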

How the data were processed

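Per the labels' protocols, strand-specific poly(A) libraries were sequenced in pairs of 150 bases. STAR, featureCounts, R 3.0.2, edgeR 3.4.2 and limma 3.18.13 are named in the submitters' processing notes without roles; the build and annotation version were not given in the sources used here, and the reference is labelled PleosPC15. The authors deposited estimated counts of 12329 genes per library, in part fractional (each estimated count is a raw value per gene); 95.2% of values above 0 were whole within 0.000001, and all were rounded for testing. The authors also deposited log2 FPKM values of 10755 genes. These equal log2 of the count plus 0.5, minus a constant per library and log2 of a length (residual SD at most 3.3e-14). The recovered lengths were whole and all multiples of 3, hence coding lengths.

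Means per group of the deposited log2 values and of the counts chose the members. The members, lists and tests were chosen with earlier results of these data known. Tests used edgeR 4.0.16 in R 4.3.3 (filterByExpr, TMM, a mean per group over 32 libraries, robust quasi-likelihood, 21 residual degrees of freedom), checked on simulated data. SE is the fold change over the root of F. The titles number the dedifferentiated cap libraries 1 and 2, their descriptions 2 and 3. All 31 replicate pairs differed beyond sampling noise (chi-square per degree of freedom at least 19.6). Members are named by rule: the 2 largest changes without overlap per direction and comparison, and the 2 highest in early level, gap and each outcome tissue relative to the lowest early mean, plus those beside the threshold. Alternatives were DESeq2 1.42.0, limma 3.58.1, other scalings, filters, thresholds and pseudocounts, a replicate covariate and left-out libraries.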

Additional observations from a re-analysis of the deposited data

How the results depend on the processing

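The number of members depended on the rule: 145 became 474 at a gap of 1.0, 38 at a gap of 2.0, and 240 with log2 CPM by library size alone. Without single libraries it ran from 93, without young stipe replicate 2, to 179. Members of the original choice among those numbered 93 and 144. At a 4-fold threshold the called members were 21 in lamellae against skin, 7 in dedifferentiated cap against skin and 20 in dedifferentiated cap against lamellae. The calls over all genes were then 876, 1390 and 1753. With only the compared groups in the fit, dedifferentiated cap against skin gave 35 members. Of these 25 (17.2% of members) were higher and 10 (6.90%) lower, beside 18.8% and 12.6% of all genes. Skin at the low level counted 6 members, not 17, with library size alone.

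With single libraries left out, the called members ran from 34 to 47 in lamellae against skin, 16 to 32 in dedifferentiated cap against skin and 23 to 38 in dedifferentiated cap against lamellae. Calls over all genes ran from 1609 to 2261, 1789 to 3441 and 2500 to 3773. The fits without stage 3 stipe replicate 3 in these ranges were chosen after seeing the data. They gave 45, 32 and 38 members, beside 2261, 3441 and 3773 of all genes. Placement ran from 18 to 27 (early level) and 7 to 8 (low level) in lamellae, 6 to 7 and 15 to 17 in skin, and 17 to 18 and 19 to 30 in dedifferentiated cap. Where only 1 dedifferentiated cap library remained, its spread was taken to equal that of the other groups.

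DESeq2 size factors moved the median of all genes by 0.11 log2 units in dedifferentiated cap against skin. There 21 members (14.5%) were called higher and 5 (3.45%) lower, beside 18.7% and 10.2% of all genes. Library size alone moved that median by -0.10 in dedifferentiated cap against lamellae. There 8 members (5.52%) were called higher and 33 (22.8%) lower, beside 17.3% and 15.4% of all genes. Same-numbered lamella and skin libraries had correlations of deviations of -0.511, -0.736 and 0.0236, and different-numbered ones of -0.738 to 0.785. With so few libraries per group, these values cannot settle whether the numbers mark a pairing. For dedifferentiated cap, which has only 2 libraries, the correlations were -0.12 to 0.289 by title number and 0.0175 to 0.419 by description number, and the labels state no pairing. With the replicate block, 42, 24 and 33 members were called by title number, beside 2040, 3014 and 3379 of all genes. By description number, 41, 24 and 33 were called, beside 2061, 3084 and 3421 of all genes. The 16 called changes of members given in the text kept direction and call in the 16 or 17 alternatives run for each, thresholds apart. Of those not given there, gene 5218 lost its call in lamellae against skin without lamella replicate 3 and without skin replicate 3. In dedifferentiated cap against skin, this gene lost its call without dedifferentiated cap replicate 1. Gene 5047 in dedifferentiated cap over skin, not called at -0.24 log2 units, was 0.13 without that library and -0.63 without replicate 2. The cause of these dependencies was not tested. The 2 libraries of dedifferentiated cap limit its precision.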
